A study of Mus musculus with 9 samples.

Results

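Langerhans cell and myeloid genes were followed in the epidermis of mouse ears, as 37 genes chosen by symbol from the 52550 genes of the deposited count table. The 37 genes fell into 7 roles, which were Langerhans cell identity and dendritic cell receptors, growth factor receptors, costimulation and migration, transcription factors, phagocyte genes, Fc and paired receptors, and pan-leukocyte genes. All libraries came from wild type mice labelled C57BL/6 (C57BL/6J in the methods of the study) whose age was labelled as 8 weeks. In the VAS + H2O group, Vaseline was applied for 5 days and water was given by gavage for 10 days. The IMQ + H2O group received imiquimod (IMQ) cream, a Toll-like receptor 7 agonist that gives a psoriasis-like dermatitis, for the same 5 days with the same water gavage. The IMQ + XYF group received IMQ for the same 5 days. Its gavage for 10 days was 200 µl of a decoction of Xiao-Yin-Fang (XYF), a Chinese herbal formula, at 23.3 mg/g. By the methods, the topical treatment fell on the last 5 of the 10 days of gavage. Each group had 3 libraries, 9 in all. The methods describe epidermal ear sheets from a pair of mice without saying whether each library held its own mice, so p-values below measure the spread between these libraries. The libraries are whole epidermal sheets after 5 days of topical treatment. In such bulk RNA, fewer cells of a type and less RNA per cell cannot be told apart.

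Langerhans cells are the resident antigen-presenting cells of the epidermis. They carry langerin (Cd207) and EpCAM, and they depend on the receptor Csf1r and its epidermal ligand interleukin 34. On activation they take up costimulatory molecules and the chemokine receptor Ccr7 and leave for the draining lymph node. Monocytes, macrophages and neutrophils enter inflamed skin from the blood, and they share many receptors and adaptors with Langerhans cells, so that few of the 37 genes mark only Langerhans cells. Ptprc, Laptm5, Cd52 and Cd53 are also expressed by epidermal T cells, and Epcam is also expressed by follicle keratinocytes.

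Levels are given as CPM, the count scaled to library size, after TMM normalisation, which adjusts library size for composition. The libraries held 30298275 to 64771160 counts, and the 37 genes took 0.0294% to 0.0603% of them. A count of 0 allows up to 3 counts, which corresponded to 0.0463 to 0.099 CPM, for counting error only. Fold changes and adjusted p come from edgeR's quasi-likelihood test over all genes that passed its filter on low counts. The cutoffs of the study defined a differentially expressed gene (DEG), with adjusted p at or under 0.05 and log2 fold change of 1 or more in either direction. Where no tool is named, a call or a p is edgeR's with all libraries of the 2 groups.

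Some libraries stood apart. IMQ + H2O replicate 3 held the highest level of 24 of the 37 genes, and IMQ + XYF replicate 1 lay next to it for most phagocyte and paired receptor genes. The summed CPM of the 10 phagocyte genes was 28.1, 25.9 and 25.9 in the VAS + H2O libraries. It was 28.6, 40.8 and 127 in IMQ + H2O and 93.8, 33.6 and 43.7 in IMQ + XYF. IMQ + H2O replicate 1 thus lay at the level of the VAS + H2O libraries, and IMQ + H2O replicate 3 stood highest. For the 7 Fc and paired receptor genes the sums were 27, 29.2 and 26.9 CPM in VAS + H2O, 20, 24.7 and 133 CPM in IMQ + H2O, and 90.7, 26 and 38.7 CPM in IMQ + XYF. The sum of the 4 Langerhans identity and dendritic cell receptor genes did not share this pattern, and lay between 137 and 165 CPM in all 9 libraries. Most of this sum was Epcam, at 96.3 to 125 CPM, which is not particular to Langerhans cells. Cd207 was at 21.2 to 34.3 CPM, and Ly75 was highest in IMQ + H2O replicate 3, at 7.91 CPM. In VAS + H2O replicate 2, the dermal fibroblast markers summed to 646 CPM and the cartilage markers to 442.5 CPM, against 72.9 and 104 CPM and 185 and 205 CPM in the other VAS + H2O libraries.

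**Figure D1:**
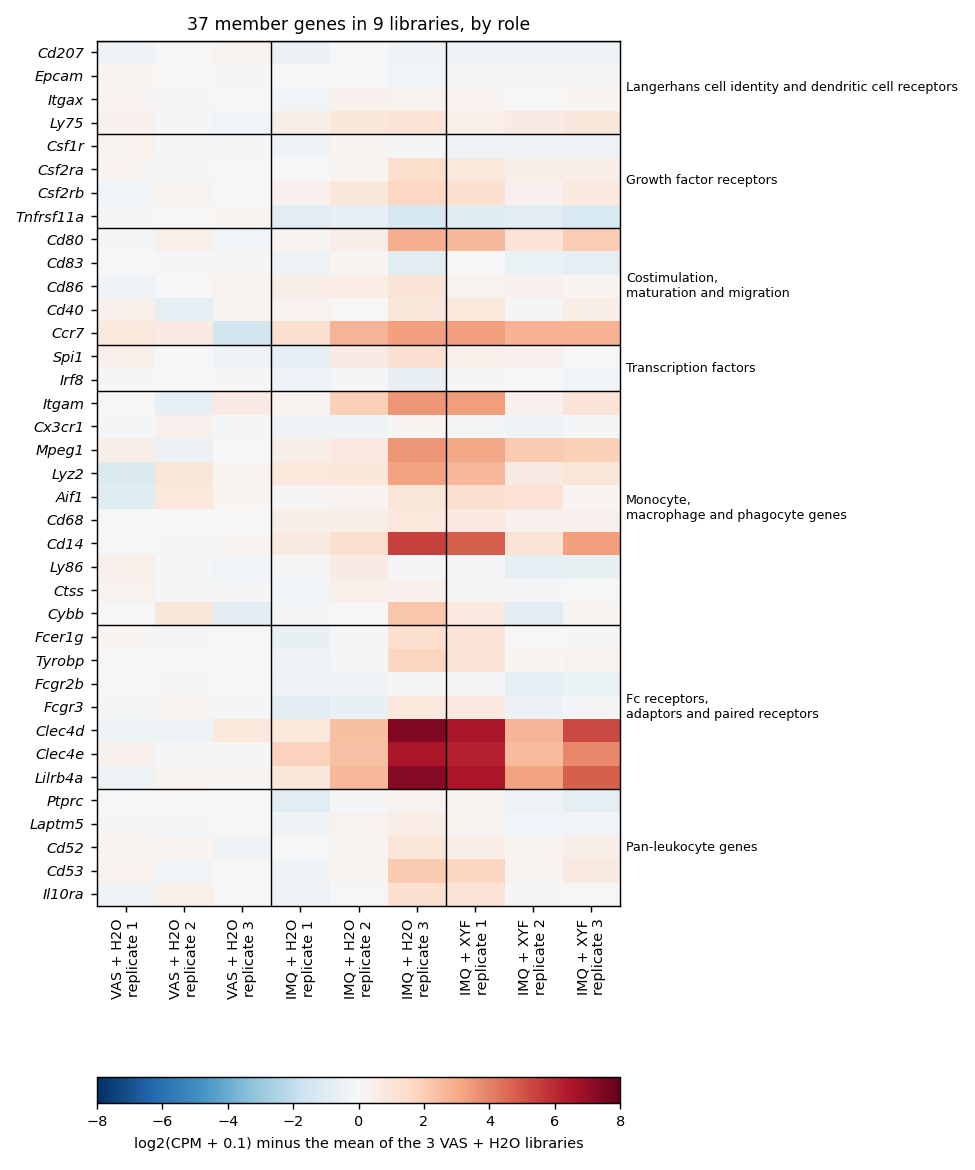
Each row is a member gene and each column a library, and the colour gives log2(CPM + 0.1) minus the mean of the 3 VAS + H2O libraries. In the rows of Clec4d, Clec4e, Lilrb4a and Cd14, the darkest cells are IMQ + H2O replicate 3 and IMQ + XYF replicate 1. IMQ + XYF replicate 3 is next in these rows, while Cd207, Epcam and Itgax stay pale in every library.

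Markers of neutrophils and monocytes, which are not among the 37 genes, stood high in the same libraries. The 12 neutrophil markers summed to between 14.7 and 16.8 CPM in VAS + H2O, to 56.8, 66.6 and 338 CPM in IMQ + H2O, and to 210, 74.3 and 103 CPM in IMQ + XYF. Cxcr2 and Il1b made up most of these sums. Csf3r, the receptor for granulocyte colony-stimulating factor, was at 0.173, 0.858 and 38 CPM in IMQ + H2O and at 22.9, 1.32 and 6.1 CPM in IMQ + XYF. Csf3r did not exceed 0.091 CPM in VAS + H2O and was a DEG in IMQ + XYF against VAS + H2O (adjusted p = 0.0093), where it passed the filter on low counts only through the IMQ + XYF libraries. Il1b, an inflammatory cytokine, was at 7.39, 14.3 and 193 CPM in IMQ + H2O and at 119, 11.8 and 39.5 CPM in IMQ + XYF. Cxcr2, a chemokine receptor, rose in IMQ + H2O against VAS + H2O with a log2 fold change of 2.38 ± 0.22 (SE, adjusted p = 0.00379), and there every IMQ + H2O library lay between 49.2 and 80.6 CPM. Unlike Csf3r, Cxcr2 was already at 10.6 to 12.6 CPM in VAS + H2O. In IMQ + H2O replicates 1 and 2 it was most of the neutrophil sum, at 49.2 and 50.4 CPM, while Csf3r did not exceed 0.858 CPM there. Cxcr2 and Il1b also passed in IMQ + XYF against VAS + H2O. Of the granule genes, Elane was at 0 in all 9 libraries and Mpo, Ltf and Camp did not exceed 0.256 CPM in any library, while Mmp8 was at 9.23 CPM in IMQ + H2O replicate 3 and at 4.95 CPM in IMQ + XYF replicate 1 and did not exceed 0.627 CPM elsewhere. In the same 2 libraries Retnlg was at 15.3 and 5.72 CPM, Cd177 at 0.995 and 0.518 CPM and Ngp at 0.417 and 0.33 CPM. In VAS + H2O, Retnlg and Cd177 were at 0 and Ngp did not exceed 0.091 CPM. Ly6g was at 0.509 CPM in IMQ + H2O replicate 3 and at 0.251 CPM in IMQ + XYF replicate 1, and at 0 in the 3 VAS + H2O libraries. The 6 monocyte markers summed to 0.086 to 0.121 CPM in VAS + H2O, to 1.93, 2.6 and 15.1 CPM in IMQ + H2O and to 12.1, 1.26 and 4.96 CPM in IMQ + XYF. Ly6c2 passed the test in IMQ + H2O against VAS + H2O, with 0 counts in every control, so that it was tested only through the IMQ + H2O libraries. The part of these cells in the results on the 37 genes was not tested.

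**Figure D2:**
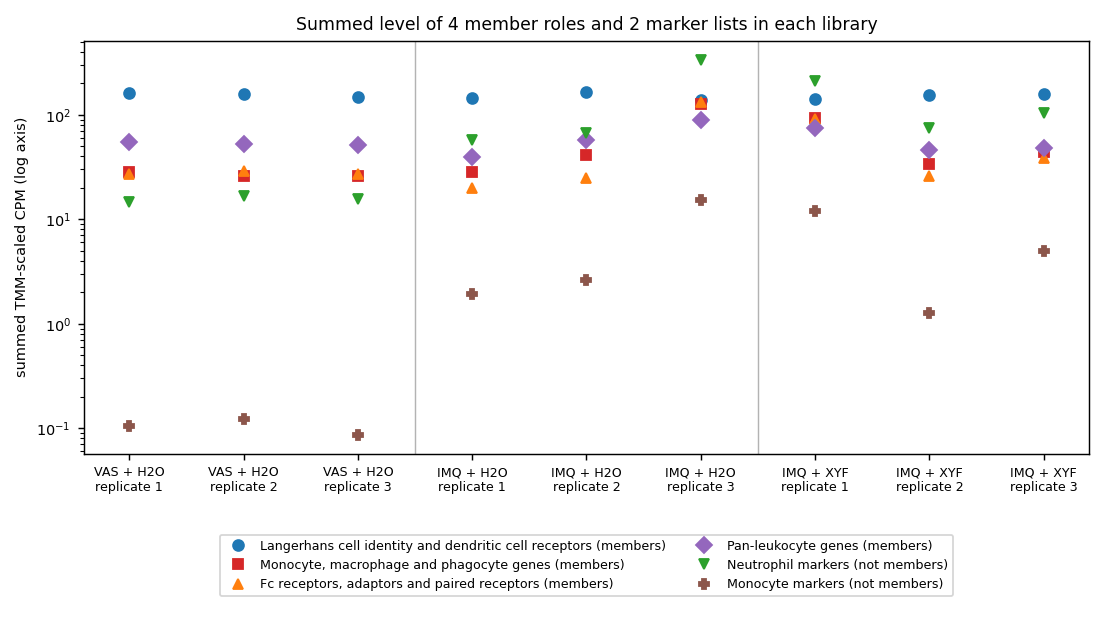
Points give the summed CPM (log axis) of 4 member roles and of the neutrophil and monocyte marker lists in each of the 9 libraries. The Langerhans identity sum, most of which is Epcam, stays between 137 and 165 CPM. The phagocyte, paired receptor, neutrophil and monocyte sums are highest in IMQ + H2O replicate 3 and next highest in IMQ + XYF replicate 1.

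None of the remaining marker lists summed highest in IMQ + H2O replicate 3. Among the macrophage markers, the complement gene C1qb rose in IMQ + H2O against VAS + H2O. With 5 counts in VAS + H2O replicate 3, C1qb did not pass the filter on low counts by the controls alone. The complement genes C1qa, C1qb and C1qc stayed at or under 3.59 CPM, with C1qa and C1qb highest in IMQ + H2O replicate 3. Of 9 conventional dendritic cell markers, Itgae fell in IMQ + XYF against VAS + H2O and 0 passed edgeR's test in IMQ + H2O, where 2 had an unadjusted p under 0.05 and DESeq2 called Itgae. Among 9 T cell markers, Cd3d and Cd3e fell in both IMQ groups, Cd3g and Cd2 fell in IMQ + H2O, Trdc fell in IMQ + XYF, and Thy1 rose in both. Mast cell markers summed to at most 0.806 CPM in any library, and 0 passed by edgeR or DESeq2, with 0 at an unadjusted p under 0.05. Of 7 keratinocyte markers, Krt14, Krt1 and Dsg3 rose and Krt15 fell in both IMQ groups. Against the VAS + H2O group with its divergent replicate 2, the fibroblast markers Pdgfrb and Col1a2 and 6 of 7 cartilage markers fell in IMQ + H2O, and Col9a2 alone fell in IMQ + XYF. Between the IMQ groups, edgeR passed Col11a2 and Col9a1 as higher in IMQ + XYF and DESeq2 passed 6 cartilage and 4 fibroblast markers, and the remaining lists gave 0 by either tool.

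The comparison of IMQ + H2O with VAS + H2O asks what IMQ does to these genes. Clec4e was the DEG among the 34 members tested, and it was higher. Across all 18009 genes tested, 3.64% were higher and 4.04% lower DEGs, so that 1 higher of 34 (2.94%) and 0 lower lay under the background. By the adjusted p alone, Cd68, Clec4e and Ly75 rose and Tnfrsf11a fell, against 12.7% of all genes higher and 9.41% lower. Aif1, Clec4d and Cybb did not pass the filter on low counts. For 8 members (Ccr7, Cd14, Cd68, Cd86, Clec4e, Csf2rb, Lilrb4a and Ly75) every IMQ + H2O library lay above every VAS + H2O library, and for Irf8 and Tnfrsf11a every library lay below, where all genes gave 23.4% and 21.6%. The median log2 fold change was 0.46 over the 34 members and -0.03 over all genes. DESeq2 called 5 members, Ccr7, Csf2rb, Itgam, Lyz2 and Mpeg1. It gave a p for 33 of the 37 members, and Cd14, Clec4e and Lilrb4a were among those without one. Without IMQ + H2O replicate 3, Clec4e was still the DEG, and with Tnfrsf11a it made 2 members that passed by adjusted p. Leaving out any VAS + H2O library gave 0 DEGs among the members, leaving out IMQ + H2O replicate 1 gave 7, and leaving out IMQ + H2O replicate 2 gave 3.

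IMQ + XYF was also set against VAS + H2O, a comparison that shares its controls with that of IMQ + H2O. Ccr7, Cd14, Cd80, Clec4d, Clec4e, Lilrb4a and Mpeg1 were higher DEGs and Tnfrsf11a was a lower DEG among 35 members tested. The higher DEGs were 20% of the members tested, where all 17954 genes tested gave 4.58% higher and 3.05% lower. Clec4d, Clec4e and Lilrb4a lay under the filter on low counts in every control, so they were tested only through the IMQ + XYF libraries. In the same way, Clec4e and Lilrb4a were tested only through the IMQ + H2O libraries in the comparison above. Ccr7 had 0 counts in VAS + H2O replicate 3, so it too did not pass the filter by the controls alone. The share of members called is thus no support for a difference. By the adjusted p alone, Csf2ra and Csf2rb also rose, which made 9 higher and 1 lower against 16.7% and 12% of all genes. The groups did not overlap for 13 members that were higher and for 4 that were lower (Cd207, Csf1r, Fcgr2b and Tnfrsf11a), against 25.1% and 22.4% of all genes. The median log2 fold change was 0.41 over the members tested and -0.04 over all genes. Without IMQ + XYF replicate 1, 6 members were higher and 1 lower, and Ccr7 lost its call. DESeq2 called the same 8 members and Cd53. Leaving out VAS + H2O replicate 1 left Clec4d, Lilrb4a and Mpeg1 higher and Tnfrsf11a lower. In that comparison Tnfrsf11a passed in every fit but fell short of the fold cutoff without VAS + H2O replicate 3 or IMQ + XYF replicate 3.

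Whether XYF moved these genes under IMQ was asked by setting IMQ + XYF against IMQ + H2O. No member passed edgeR's quasi-likelihood test among 36 tested, against 0.0281% of all 17793 genes higher and 0% lower. DESeq2 also called 0 members, and 1 member (Cd86) had an unadjusted p under 0.05, where 5.43% of all genes did. The smallest adjusted p was 0.799 for Cd86. Cd86 and Ly86 were lower in every IMQ + XYF library than in every IMQ + H2O library and no member was higher in every one, where all genes gave 4.67% lower and 5.99% higher. The median log2 fold change was -0.11 over the members and 0 over all genes. No member passed without IMQ + H2O replicate 3, without IMQ + XYF replicate 1, or without both.

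**Figure D3:**
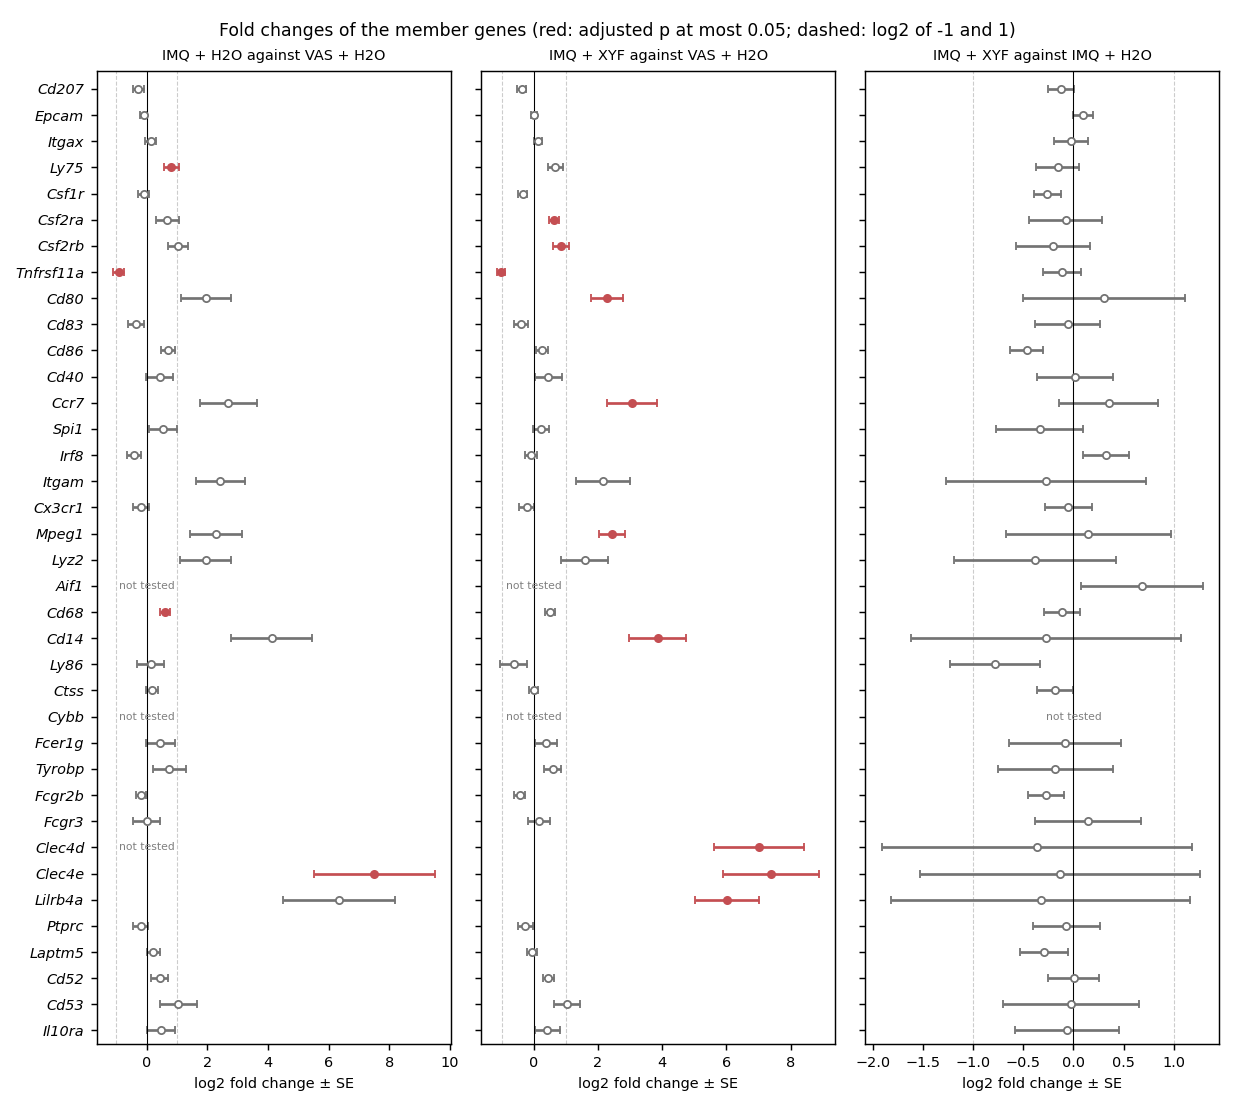
Log2 fold changes with their SE are shown for the 34, 35 and 36 members tested in the 3 comparisons from left to right (the others are marked as not tested), with filled red points for an adjusted p of at most 0.05 and with a narrower scale in the right panel. Red points to the right are Ly75, Cd68 and Clec4e in the left panel and 9 members in the middle panel, Tnfrsf11a is to the left in both, and the right panel has none.

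The 250 bases before the start site are shown for the member that was lowest in the controls and rose, the member that fell and the member that defines Langerhans cells. The sequences are from RefSeq on GRCm38.p6, 5′ to 3′ on the strand of the gene, at chr6:123289872-123290121 (minus), chr1:105780473-105780722 (plus) and chr6:83677858-83678107 (minus), and capitals mark matches to a searched motif.
Clec4e: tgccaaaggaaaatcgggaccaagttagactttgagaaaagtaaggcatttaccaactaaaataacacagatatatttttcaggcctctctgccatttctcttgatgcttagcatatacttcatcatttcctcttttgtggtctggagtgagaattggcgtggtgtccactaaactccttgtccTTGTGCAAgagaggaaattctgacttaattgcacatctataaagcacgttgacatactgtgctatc
Tnfrsf11a: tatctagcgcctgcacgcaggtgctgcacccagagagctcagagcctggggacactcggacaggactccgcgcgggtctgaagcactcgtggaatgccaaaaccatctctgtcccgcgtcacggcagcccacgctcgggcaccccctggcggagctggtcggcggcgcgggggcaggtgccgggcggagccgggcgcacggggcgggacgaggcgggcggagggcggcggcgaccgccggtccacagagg
Cd207: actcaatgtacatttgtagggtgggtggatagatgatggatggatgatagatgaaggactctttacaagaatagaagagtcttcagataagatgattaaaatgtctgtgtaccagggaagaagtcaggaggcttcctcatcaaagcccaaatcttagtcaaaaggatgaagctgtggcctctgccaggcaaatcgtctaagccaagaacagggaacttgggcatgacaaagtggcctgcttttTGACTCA
Matches to 4 motifs were searched on both strands, in the windows of 25 members found there by symbol. The C/EBP motif TTGCNNAA was in the Clec4e window and in those of Cd68, Fcgr3 and Ly75, or 4 of 25 members, against 9.56% of all 32851 windows. The AP-1 motif TGAGTCA was in the Cd207 window, where it abuts the start site, and in those of Cd68 and Itgax, against 4.46% of all windows. The PU.1 motif GAGGAAGT was in 0 of 25, against 2.44% of all windows, and the NF-kB motif was in that of Fcgr3, against 3.9%. No motif was found in the Tnfrsf11a window. A match describes the letters in the window and not a bound site.

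Of the 4 Langerhans cell identity and dendritic cell receptor genes, Ly75 passed the test, in IMQ + H2O against VAS + H2O. Cd207 encodes langerin, the lectin that forms Birbeck granules. It was at 24.1, 29.9 and 34.3 CPM in VAS + H2O, at 21.2, 28.9 and 23.9 CPM in IMQ + H2O, and at 23.8, 22.4 and 21.5 CPM in IMQ + XYF. The IMQ + H2O range overlapped the controls, while the 3 IMQ + XYF libraries lay just under the lowest control. The log2 fold change against VAS + H2O was -0.27 ± 0.17 (SE) in IMQ + H2O (adjusted p = 0.298) and -0.38 ± 0.14 in IMQ + XYF (adjusted p = 0.0808), neither past the threshold. Without VAS + H2O replicate 1 the latter became -0.51 and passed (adjusted p = 0.0256), and it did not pass without any other library. Between the IMQ groups it was -0.12 ± 0.13 (adjusted p = 1).

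Epcam, an adhesion molecule that also marks Langerhans cells, was at 125, 116 and 102 CPM in VAS + H2O, at 110, 119 and 96.3 CPM in IMQ + H2O and at 106, 119 and 120.5 CPM in IMQ + XYF. The ranges of the 3 groups overlapped, with log2 fold changes of -0.09 ± 0.11 and 0.01 ± 0.1 (SE) against VAS + H2O (adjusted p = 0.593 and 0.947). Itgax, the CD11c integrin of dendritic cells, was at 8.65, 7.1 and 7.77 CPM in VAS + H2O, at 6.73, 9.95 and 9.35 CPM in IMQ + H2O and at 8.65, 8.07 and 8.83 CPM in IMQ + XYF. Its log2 fold changes against VAS + H2O were 0.14 ± 0.19 (SE) and 0.12 ± 0.13 (adjusted p = 0.632 and 0.526). Ly75 encodes DEC-205, an endocytic receptor of dendritic cells that keratinocytes can also express. Ly75 was at 4.61, 3.46 and 3.12 CPM in VAS + H2O and at 5.14, 6.89 and 7.91 CPM in IMQ + H2O, where every library lay above the controls. It rose by a log2 fold change of 0.82 ± 0.24 (SE, adjusted p = 0.048) in IMQ + H2O, a call that held without IMQ + H2O replicate 1 (adjusted p = 0.0481) and was lost without each of the other libraries (adjusted p up to 0.133). In IMQ + XYF, Ly75 was at 4.84, 5.98 and 7.04 CPM (log2 fold change 0.67 ± 0.22, adjusted p = 0.0637). DESeq2 passed Ly75 by adjusted p in both IMQ groups against VAS + H2O.

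**Figure D4:**
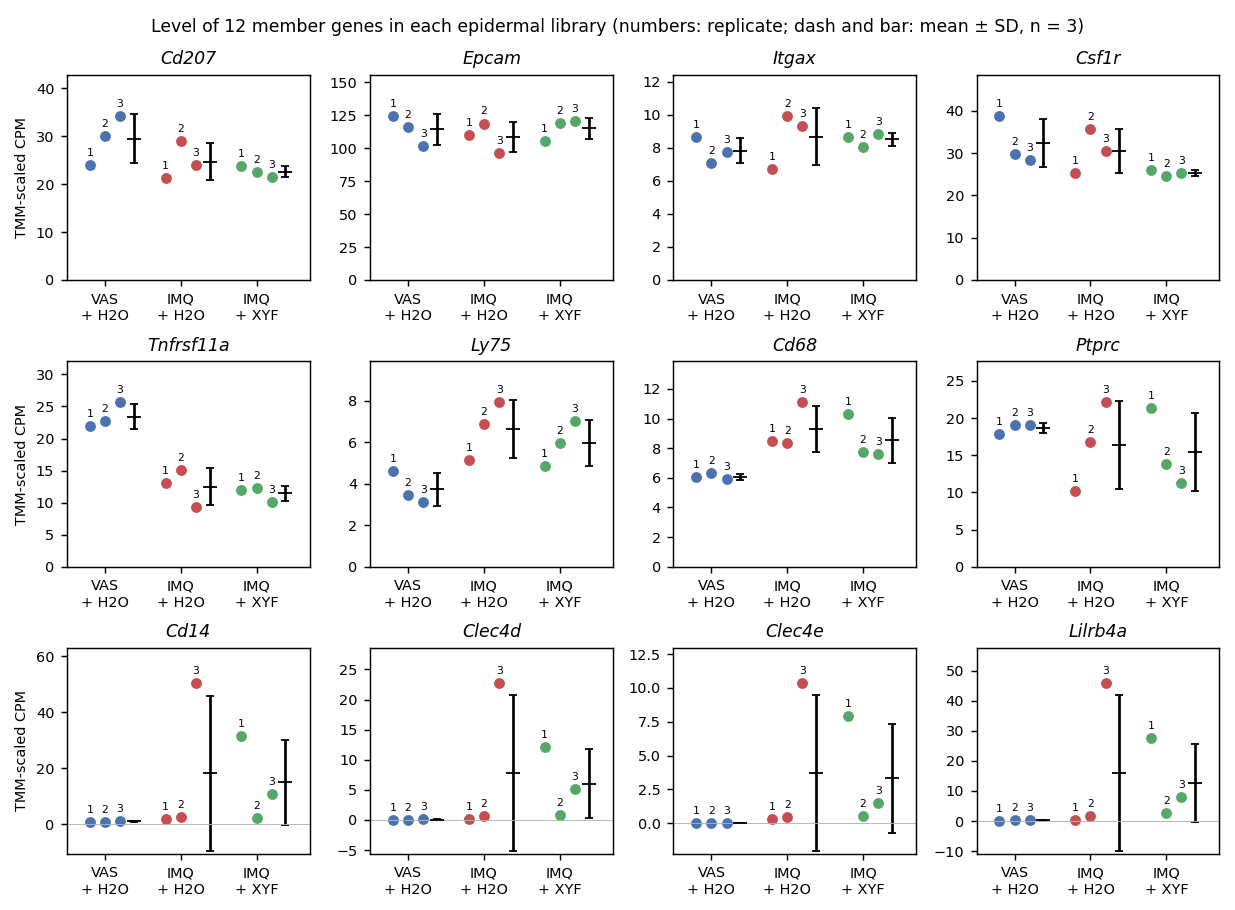
Each point is the CPM of a library (labelled by replicate), and the dash with its bar is the mean ± SD of 3 libraries, for 12 members on linear axes. The groups overlap for Epcam, Itgax and Ptprc, Tnfrsf11a is lower in all 6 IMQ libraries, and Cd14, Clec4d, Clec4e and Lilrb4a are high in IMQ + H2O replicate 3 and IMQ + XYF replicate 1.

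Among the growth factor receptors, Tnfrsf11a fell. Tnfrsf11a encodes RANK, the receptor through which RANKL supports Langerhans cell maintenance, and in skin it is also found on keratinocyte progenitors. It was at 21.9, 22.7 and 25.6 CPM in VAS + H2O, at 13, 15.1 and 9.37 CPM in IMQ + H2O and at 12, 12.4 and 10.2 CPM in IMQ + XYF. All 6 IMQ libraries lay below the lowest control, and the IMQ groups overlapped each other. The log2 fold change was -0.92 ± 0.18 (SE) in IMQ + H2O (adjusted p = 0.0182) and -1.02 ± 0.12 in IMQ + XYF (adjusted p = 0.00193). Leaving out 1 library at a time gave -1.04 to -0.75 in IMQ + H2O and -1.07 to -0.94 in IMQ + XYF, and the highest adjusted p were 0.0562 and 0.0109. The call in IMQ + H2O was lost without VAS + H2O replicate 2, VAS + H2O replicate 3 or IMQ + H2O replicate 1, and the one in IMQ + XYF passed each time. Tnfsf11, which encodes RANKL, stayed at or under 0.483 CPM in every library.

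Csf1r, the receptor for CSF-1 and interleukin 34, was at 38.8, 29.7 and 28.4 CPM in VAS + H2O, at 25.3, 35.6 and 30.6 CPM in IMQ + H2O and at 26.1, 24.6 and 25.4 CPM in IMQ + XYF. The IMQ + XYF libraries lay just below the lowest control, with a log2 fold change of -0.35 ± 0.13 (SE) that did not pass (adjusted p = 0.0863). In IMQ + H2O it was -0.1 ± 0.17 (adjusted p = 0.709) and between the IMQ groups -0.26 ± 0.13 (adjusted p = 0.992). The GM-CSF receptor chains stood differently. Csf2rb, the signalling chain, was at 8.9, 11.9 and 10.4 CPM in VAS + H2O, at 12.9, 19.1 and 32.9 CPM in IMQ + H2O and at 24.7, 13.1 and 18.1 CPM in IMQ + XYF, so that all 6 IMQ libraries lay above the controls. It rose in IMQ + XYF (log2 fold change 0.85 ± 0.24 SE, adjusted p = 0.0398) and had a log2 fold change of 1.05 ± 0.33 in IMQ + H2O (adjusted p = 0.0647). Csf2ra, the ligand-binding chain, was at 8.1, 6.43 and 6.97 CPM in VAS + H2O, at 7.39, 8.34 and 19.2 CPM in IMQ + H2O and at 12.9, 9.89 and 10.1 CPM in IMQ + XYF. It rose in IMQ + XYF (log2 fold change 0.62 ± 0.16 SE, adjusted p = 0.0309) and was at 0.69 ± 0.37 in IMQ + H2O (adjusted p = 0.218). Without IMQ + XYF replicate 1, neither chain passed, at log2 fold changes of 0.61 (adjusted p = 0.0942) for Csf2rb and 0.5 (adjusted p = 0.0861) for Csf2ra. With 1 library left out at a time, Csf2rb passed only without IMQ + XYF replicate 2, and Csf2ra only without that library or VAS + H2O replicate 1. Csf2rb2, a near-identical copy of Csf2rb, could share its reads.

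The costimulation and migration genes were led by Ccr7 and Cd80, both low in level. Ccr7, which guides dendritic cells to lymph nodes, was at 0.402, 0.334 and 0 CPM in VAS + H2O, at 0.587, 1.71 and 2.64 CPM in IMQ + H2O and at 2.67, 1.79 and 1.85 CPM in IMQ + XYF. Every IMQ library lay above every control. The log2 fold change was 2.7 ± 0.93 (SE) in IMQ + H2O (adjusted p = 0.0816) and 3.06 ± 0.78 in IMQ + XYF (adjusted p = 0.0282), a call that held without VAS + H2O replicate 3 (adjusted p = 0.0066) and was lost without each of the other libraries (adjusted p up to 0.0905). The controls alone did not bring Ccr7 past the filter on low counts. Cd80, a ligand of CD28, was at 0.317, 0.516 and 0.315 CPM in VAS + H2O, at 0.449, 0.572 and 3.42 CPM in IMQ + H2O and at 2.81, 0.863 and 1.82 CPM in IMQ + XYF. It rose in IMQ + XYF (log2 fold change 2.27 ± 0.49 SE, adjusted p = 0.0153, and 0.0567 without VAS + H2O replicate 1). For Cd80 in IMQ + H2O, the log2 fold change of 1.96 ± 0.83 (adjusted p = 0.133) became 0.41 without replicate 3. Cd86, the other CD28 ligand, was at 3.89, 4.7 and 5.85 CPM in VAS + H2O, at 6.94, 7.2 and 9.6 CPM in IMQ + H2O and at 5.83, 6.04 and 5.24 CPM in IMQ + XYF. IMQ + H2O lay above both other groups for Cd86, but the log2 fold changes of 0.71 ± 0.22 (SE) against VAS + H2O (adjusted p = 0.059) and of -0.47 ± 0.17 in IMQ + XYF against IMQ + H2O (adjusted p = 0.799) did not pass. Against VAS + H2O, Cd86 in IMQ + H2O did pass by DESeq2 (adjusted p = 0.0228). By edgeR it passed with all 9 libraries in 1 fit (adjusted p = 0.0238) and without VAS + H2O replicate 3 (adjusted p = 0.0499). Cd83 and Cd40 did not pass in any comparison by edgeR or DESeq2, with levels of 3.03 to 6.29 CPM and 0.364 to 1.32 CPM.

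Of the transcription factors, Spi1 encodes PU.1, which directs myeloid development. Spi1 was at 6.85, 5.22 and 3.78 CPM in VAS + H2O, at 3.14, 8.19 and 12 CPM in IMQ + H2O and at 6.69, 6.63 and 5.13 CPM in IMQ + XYF. The groups overlapped, with log2 fold changes of 0.55 ± 0.47 (SE) and 0.22 ± 0.24 against VAS + H2O (adjusted p = 0.432 and 0.54). Irf8, a factor of monocyte and dendritic cell lineages, was lower in every IMQ + H2O library (0.995 to 1.4 CPM) than in the controls (1.52 to 1.73 CPM), with a log2 fold change of -0.42 ± 0.24 that did not pass (adjusted p = 0.241).

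The phagocyte genes differed widely between the libraries of the IMQ groups. Cd14, the lipopolysaccharide co-receptor, was at 0.994, 0.971 and 1.15 CPM in VAS + H2O, at 1.76, 2.68 and 50.3 CPM in IMQ + H2O and at 31.7, 2.28 and 10.9 CPM in IMQ + XYF. Every IMQ library lay above every control, and the highest library of a group was 28.6 times the lowest in IMQ + H2O and 13.9 times in IMQ + XYF, against 1.18 times in VAS + H2O. Cd14 rose in IMQ + XYF (log2 fold change 3.85 ± 0.89 SE, adjusted p = 0.0196), and without replicate 1 it stood at 2.69 with an adjusted p of 0.0368. The call was lost without any 1 of the VAS + H2O libraries (adjusted p up to 0.0685). The log2 fold change of Cd14 in IMQ + H2O, 4.13 ± 1.33, did not pass (adjusted p = 0.0672) and was 1.09 without replicate 3. Mpeg1, a pore-forming protein of macrophages, was at 1.88, 0.94 and 1.26 CPM in VAS + H2O, at 1.83, 2.29 and 16 CPM in IMQ + H2O and at 11.2, 5.86 and 5.16 CPM in IMQ + XYF. It rose in IMQ + XYF (log2 fold change 2.44 ± 0.4 SE, adjusted p = 0.00588), with all 3 libraries above the controls, and had a log2 fold change of 2.29 ± 0.87 in IMQ + H2O (adjusted p = 0.103) that became 0.58 without replicate 3.

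Cd68, a lysosomal protein of macrophages, was closer between libraries, at 6.03, 6.31 and 5.91 CPM in VAS + H2O, at 8.46, 8.34 and 11.1 CPM in IMQ + H2O and at 10.3, 7.74 and 7.58 CPM in IMQ + XYF. All 6 IMQ libraries lay above the controls. Cd68 rose in IMQ + H2O (log2 fold change 0.6 ± 0.16 SE, adjusted p = 0.0425), a call that was lost without any 1 of the 6 libraries (adjusted p from 0.0524 to 0.109), and was at 0.49 ± 0.16 in IMQ + XYF (adjusted p = 0.0628). DESeq2 passed Cd68 by adjusted p in both IMQ groups against VAS + H2O. Itgam, the CD11b integrin, reached 19.3 CPM in IMQ + H2O replicate 3 and 16.9 CPM in IMQ + XYF replicate 1 and lay between 0.971 and 6.19 CPM elsewhere. By edgeR Itgam did not pass against VAS + H2O (adjusted p = 0.0755 in IMQ + H2O and 0.0978 in IMQ + XYF), while DESeq2 called it in IMQ + H2O (adjusted p = 0.0397), as edgeR did without IMQ + H2O replicate 1 (adjusted p = 0.0357). A second gene model, Gm49368, carries the symbol Itgam and overlaps it, so their reads cannot be told apart, and the summed counts gave log2 fold changes of 1.04 and 0.95 against VAS + H2O in place of 2.44 and 2.16. Lyz2, a lysozyme of phagocytes, reached 11 and 7.48 CPM in the same 2 libraries, and it was a call of DESeq2 in IMQ + H2O against VAS + H2O and not of edgeR (adjusted p = 0.138). Cx3cr1, Ctss and Ly86 stayed within 1.39 to 2.27, 10.7 to 16.9 and 0.185 to 0.598 CPM. Aif1 and Cybb lay near the limit of detection, at or under 0.377 and 0.763 CPM.

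The paired receptors gave the highest fold changes of the 37 genes. Clec4e (Mincle) and Clec4d are C-type lectins that sense microbial glycolipids through Fcer1g, and they lie side by side on chromosome 6 (GRCm38, 123281789-123289870 and 123262111-123275265). Clec4e was at 0.0423, 0 and 0 CPM in VAS + H2O, at 0.311, 0.468 and 10.3 CPM in IMQ + H2O and at 7.93, 0.555 and 1.51 CPM in IMQ + XYF. Every IMQ library lay above every control. The controls held 2 counts in all, against 474 and 576 in the IMQ groups, so that the pooled rates were 230-fold (95% counting interval 63.3 to 1910) and 239-fold (65.9 to 1980) those of VAS + H2O. The interval covers counting error only. Clec4e rose in IMQ + H2O (adjusted p = 0.0388, and 0.0464 without replicate 3) and in IMQ + XYF (adjusted p = 0.0121, and 0.0177 without replicate 1). The first call was lost without any 1 of the VAS + H2O libraries (adjusted p up to 0.133), and the latter without VAS + H2O replicate 1 (adjusted p = 0.0584). The fitted log2 fold change in IMQ + H2O, 7.51 ± 1.99 (SE), was 4.28 without replicate 3, and both depend on the prior count.

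Clec4d was at 0, 0 and 0.143 CPM in VAS + H2O, at 0.138, 0.624 and 22.8 CPM in IMQ + H2O and at 12.1, 0.801 and 5.21 CPM in IMQ + XYF. The IMQ + XYF libraries all lay above the controls, while IMQ + H2O replicate 1 did not. It rose in IMQ + XYF (log2 fold change 7.01 ± 1.4 SE, adjusted p = 0.0118), with 982 counts against 5 and 5.99 without replicate 1. Lilrb4a, an inhibitory immunoglobulin-like receptor on chromosome 10, was at 0.127, 0.243 and 0.229 CPM in VAS + H2O, at 0.449, 1.74 and 45.9 CPM in IMQ + H2O and at 27.5, 2.68 and 7.83 CPM in IMQ + XYF. Every IMQ library lay above every control. Lilrb4a rose in IMQ + XYF (log2 fold change 6.01 ± 1 SE, adjusted p = 0.00635), to 4.75 without replicate 1, and stood at 6.34 ± 1.86 in IMQ + H2O (adjusted p = 0.051), where it was 2.46 without replicate 3. Gm49339, a second model with the same symbol, was at 0 in the controls, at 0.138, 0.416 and 7.06 CPM in IMQ + H2O and at 6.45, 0.123 and 2.56 CPM in IMQ + XYF, and its reads cannot be told apart from those of Lilrb4a. With both models summed, Lilrb4a passed in IMQ + H2O (log2 fold change 6.55, adjusted p = 0.0461).

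The adaptors and Fc receptors showed the library pattern without a call by edgeR or DESeq2. Tyrobp (DAP12) reached 16.2 CPM in IMQ + H2O replicate 3 and 10.2 CPM in IMQ + XYF replicate 1, against 3.83 to 5.98 CPM elsewhere. Fcer1g, the shared signalling chain, reached 10.8 and 8.51 CPM in those libraries, against 2.73 to 4.71 CPM elsewhere. Fcgr3, an activating IgG receptor, was at 17.6 and 16.8 CPM there and at 5.32 to 11.3 CPM in the others. The inhibitory receptor Fcgr2b did not share it, at 5.52 to 9.1 CPM in all libraries, and its log2 fold change of -0.45 ± 0.16 in IMQ + XYF against VAS + H2O did not pass (adjusted p = 0.0804).

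Between the IMQ groups, the fold changes of the high-spread genes took their sign from which libraries were used. For Cd14, Clec4d, Clec4e and Lilrb4a the log2 fold changes of IMQ + XYF against IMQ + H2O were -0.28 ± 1.35, -0.36 ± 1.55, -0.14 ± 1.39 and -0.33 ± 1.49 (SE). Without IMQ + H2O replicate 3 they were 2.75, 3.93, 3.1 and 3.5, and without IMQ + XYF replicate 1 they were -1.47, -1.39, -1.85 and -1.62. Without both libraries they were 1.56, 2.92, 1.39 and 2.23, and no adjusted p fell under 0.464 in any of these fits. No difference between the IMQ groups was thus detected in these genes with 3 libraries a group, which does not show that there was none.

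Of the pan-leukocyte genes, edgeR called none in any comparison, with unadjusted p under 0.05 for Cd52 and Cd53 in IMQ + XYF against VAS + H2O, where DESeq2 called Cd53. Ptprc (CD45), the phosphatase on all leukocytes, was at 17.9, 19 and 19 CPM in VAS + H2O, at 10.2, 16.8 and 22.1 CPM in IMQ + H2O and at 21.4, 13.8 and 11.3 CPM in IMQ + XYF. The IMQ groups spread to both sides of the controls, with log2 fold changes of -0.2 ± 0.26 (SE) and -0.26 ± 0.23 (adjusted p = 0.615 and 0.423). Leaving out 1 library at a time gave Ptprc -0.55 (without IMQ + XYF replicate 1) to -0.08 in IMQ + XYF against VAS + H2O. The adjusted p of these fits ran from 0.0423 to 0.821, so that the result depended on the libraries used. Cd53 reached 17.3 and 13.5 CPM in IMQ + H2O replicate 3 and IMQ + XYF replicate 1, against 3.25 to 6.61 CPM elsewhere. Without IMQ + XYF replicate 2, edgeR also called it against VAS + H2O. Laptm5, Cd52 and Il10ra lay within 17.3 to 31.1, 5.56 to 12.9 and 1.92 to 6.11 CPM.

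Per kilobase of exon, the order of levels in VAS + H2O was led by Epcam at 52.1 ± 5.32 and Cd207 at 19.3 ± 3.37 (mean ± SD of CPM per kilobase, n = 3). Ctss, a lysosomal protease, was at 9.38 ± 1.5 and Tyrobp at 7.25 ± 0.237, which lay below Cd207 beyond their spread. Cd52 at 5.68 ± 0.865, Csf1r at 5.6 ± 0.982 and Fcgr3 at 5.58 ± 0.823 did not differ beyond their spread. Clec4e was the lowest, at 0.00284, followed by Cybb at 0.0188 and Clec4d at 0.0299.

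The ligands and partners of the members were led by Tgfb1 and Csf1. Of 13 such genes, 8 were tested in IMQ + H2O against VAS + H2O, where Csf3, Tgfb1 and Csf1 rose and Cd28 fell. Csf3 was at 0, 0 and 0.0573 CPM in VAS + H2O and at 0.483, 0.728 and 3.29 CPM in IMQ + H2O (adjusted p = 0.0188). It was thus tested only through the IMQ + H2O libraries. Tgfb1, a cytokine that Langerhans cells need, was at 22.5, 20 and 19.2 CPM in VAS + H2O and at 30.4 to 37.3 CPM in all 6 IMQ libraries, with log2 fold changes of 0.75 ± 0.12 (SE, adjusted p = 0.0114) and 0.76 ± 0.09 (adjusted p = 0.00206). Csf1, a ligand of Csf1r, rose by 0.41 ± 0.11 in IMQ + H2O (adjusted p = 0.0369) and by 0.49 ± 0.11 in IMQ + XYF (adjusted p = 0.019). Il34, the other ligand, was at 35 to 53.1 CPM in VAS + H2O and at 28.9 to 41 CPM in the IMQ libraries, with no call. In IMQ + XYF against VAS + H2O, Tgfb1 and Csf1 were the calls among 7 tested, and between the IMQ groups edgeR and DESeq2 gave 0 among 8, with 1 unadjusted p under 0.05 in edgeR, for Cd28.

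Of 9 other regulators of Langerhans cells, Cebpb, Tgfbr2, Rela and Relb rose and Ahr fell in both IMQ groups against VAS + H2O, and 0 passed between the IMQ groups by edgeR or DESeq2, with 1 unadjusted p under 0.05 in edgeR, for Cebpb. Ahr, the aryl hydrocarbon receptor, was at 93.2 to 106 CPM in VAS + H2O and at 54.7 to 69.8 CPM in the 6 IMQ libraries (log2 fold changes -0.69 ± 0.1 and -0.59 ± 0.08 SE, adjusted p = 0.00937 and 0.00343). Cebpb, a factor of inflammatory and epidermal genes, was at 61.5 to 67.9 CPM in VAS + H2O and at 105 to 126 CPM in the 6 IMQ libraries (0.88 ± 0.08 and 0.72 ± 0.07, adjusted p = 0.00372 and 0.0011). These genes are also expressed by keratinocytes, and the cells behind them were not separated here.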

How the data were processed

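Raw counts per gene were deposited as a table of 52550 genes by 9 libraries. Per the labels and the methods of the study, the authors used STAR 2.5 and GRCm38 with Ensembl annotation. The tool that made the counts and its strand setting are not given in the sources used here. The labels call the libraries strand-specific, while the kit named in the methods is a TruSeq RNA kit.

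The 37 members, their 7 roles and the 12 other marker lists were chosen with earlier results of these data known. By the rule for named genes, values and fits were given for members with an adjusted p at or under 0.05 in any comparison and for Cd207, Epcam, Itgax, Csf1r, Ptprc and Spi1. Fits of other members, and list genes beyond the 3 with the smallest adjusted p, were added after their values were seen. Some genes of the marker lists are not reported here. Where a symbol had 2 identifiers, the one so named in GENCODE M21 was used, whose exon lengths gave CPM per kilobase.

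Each pair of groups was fitted in edgeR 4.0.16 (R 4.3.3) with filterByExpr, TMM and the quasi-likelihood test, with Benjamini-Hochberg adjustment over all genes tested. The scripts were tested on simulated data. Alternatives were DESeq2 1.42.0, RLE size factors, no filter, a stricter filter (10 counts or more in each library), a joint fit of all groups, a replicate block, the adjusted p alone and each library left out. The joint removal of 2 libraries and the summing of overlapping identifiers were chosen after seeing the data.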

Additional observations from a re-analysis of the deposited data

How the results depend on the processing

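The count of DEGs among the members was 1 in IMQ + H2O against VAS + H2O. It became 5 with DESeq2, 5 with all 9 libraries in 1 fit, 0 with at least 10 counts in every library, 4 by the adjusted p alone and 2 with overlapping identifiers summed, and lay between 0 and 7 when 1 library was left out. With the filter of 10 counts, Clec4e was no longer tested, and DESeq2 gave it no p, so the 5 members it called held 0 of the original. For the other changes the cause was not tested. In IMQ + XYF against VAS + H2O the count was 8, and it became 4 with at least 10 counts in every library, which no longer tests the members at or near 0 in the controls, 5 with all 9 libraries in 1 fit, and 4 to 9 when 1 library was left out. In IMQ + XYF against IMQ + H2O it was 0 in all alternatives run. RLE size factors and no filter left the 3 counts as they were. Over all genes, the DEGs of IMQ + H2O against VAS + H2O went from 1383 to 857 without VAS + H2O replicate 1, 717 without VAS + H2O replicate 2 and 711 without IMQ + H2O replicate 3, and the adjusted p alone gave 3986. For IMQ + XYF against VAS + H2O it gave 5152 in place of 1371. For IMQ + XYF against IMQ + H2O, 5 became 129 with DESeq2, 1 with all 9 libraries in 1 fit, 0 with the replicate block and 0 to 5 when 1 library was left out.

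Signs turned for values that did not pass the test. In IMQ + XYF against IMQ + H2O, the log2 fold change without 1 library ran from -1.47 to 2.75 for Cd14, -1.39 to 3.93 for Clec4d, -1.85 to 3.1 for Clec4e, -1.62 to 3.5 for Lilrb4a, -0.23 to 0.007 for Cd207 and -0.29 to 0.048 for Tnfrsf11a. Without IMQ + H2O replicate 3 and IMQ + XYF replicate 1 together it was 1.56 for Cd14, 2.92 for Clec4d, 1.39 for Clec4e and 2.23 for Lilrb4a. Against VAS + H2O, Csf1r ran from -0.19 to 0.057 and Ptprc from -0.47 to 0.087 in IMQ + H2O, and Epcam from -0.047 to 0.088 in IMQ + XYF.

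The labels number replicates 1 to 3 in each group, but libraries with the same number did not deviate together (correlations from -0.17 to 0.14), and not every library correlated best with its own number, so the numbers were not taken to pair them. With the replicate block the counts of DEGs were 1, 6 and 0 in IMQ + H2O against VAS + H2O, IMQ + XYF against VAS + H2O and IMQ + XYF against IMQ + H2O. In the last, the log2 fold change under the block was 0.29 for Cd14, 0.79 for Clec4d, 0.42 for Clec4e and 0.82 for Lilrb4a. With the block, Ly75 and Cd68 no longer passed in IMQ + H2O and Csf2rb, Cd80 and Ccr7 no longer passed in IMQ + XYF, while Cd86 passed in IMQ + H2O.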
